A study of Homo sapiens with 6 samples.

Results

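The 10 genes described here encode transcription factors of the AP-1 family and related immediate early factors, namely FOS, FOSB, FOSL1, FOSL2, JUN, JUNB, JUND, ATF3, MAFF and EGR1. They were chosen by name from the 33451 genes in the deposited table of counts, and each of the 10 is listed there. The cells were MDA-MB-453, a long-established line from human breast cancer. They grew for 5 days in medium with foetal calf serum and either 100 nM 25(OH)D, the circulating form of vitamin D, or alcohol alone, its solvent. Each group held 3 libraries of mRNA, called control and 25(OH)D here. The libraries held between 33268860 and 40928176 counts, and values are given as counts, as CPM (counts scaled to a common library size with TMM factors) or as RPKM (counts scaled to gene length and library size).

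AP-1 is a dimer of proteins with a basic region and a leucine zipper. JUN proteins can pair with each other, whereas FOS proteins bind DNA only with a partner such as a JUN protein. Many of these genes are immediate early genes, which means that growth factors, serum or stress raise their mRNA within minutes through MAP kinases and without new protein synthesis, and the mRNA then decays fast. EGR1 is a zinc finger protein that binds GC-rich sites and belongs to the same early response. The libraries were taken after 5 days, so they hold the levels of a long culture and no early time point.

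The labelled cell type was checked on marker genes. The epithelial genes KRT8, KRT18, EPCAM and CDH1 had between 713 and 70501 counts in each library, and ERBB2, FGFR4 and FOXA1, which are high in this line, had between 2723 and 30263. ESR1 and PGR, the receptors this line lacks, had at most 8 counts. The blood cell markers PTPRC, CD3E and CD79A had at most 6 counts, and of the endothelial markers PECAM1 and VWF had at most 12 whereas CDH5 was not listed. Of the fibroblast markers, COL1A1 had between 1119 and 1604 counts, COL1A2 had at most 16, and COL3A1 was not listed. Mitochondrial genes took between 7.85% and 7.99% of the control counts and between 8.89% and 9.24% of the 25(OH)D counts. Their part in the results was not tested.

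The sequences around the starts of these genes were searched for the kinds of element through which the early response is known to act. RefSeq windows on GRCh38.p14 reached from 250 bases before the start of a gene to 50 bases after it, and 9 of the 10 genes matched, with FOSL1 missing. Both strands were searched for TGANTCA (the AP-1 site), TGACGTCA (the cAMP response element) and TGACATCA (an element known from the JUN promoter). They were also searched for the CArG box (the site of serum response factor) and GCGNGGGCG (a loose form of the EGR site). N stands for any base. The windows of EGR1, JUN, ATF3 and FOSL2 are printed because these genes moved in different directions and each window held at least 1 match, shown in capitals. They lie at chr5:138465229-138465528 (plus strand), chr1:58783998-58784297 (minus strand), chr1:212565157-212565456 (plus strand) and chr2:28392608-28392907 (plus strand).
EGR1: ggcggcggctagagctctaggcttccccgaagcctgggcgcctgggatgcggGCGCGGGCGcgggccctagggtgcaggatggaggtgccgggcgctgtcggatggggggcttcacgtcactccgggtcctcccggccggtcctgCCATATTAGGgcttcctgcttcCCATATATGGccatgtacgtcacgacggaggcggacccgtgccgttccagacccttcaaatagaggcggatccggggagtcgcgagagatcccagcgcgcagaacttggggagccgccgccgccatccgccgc
JUN: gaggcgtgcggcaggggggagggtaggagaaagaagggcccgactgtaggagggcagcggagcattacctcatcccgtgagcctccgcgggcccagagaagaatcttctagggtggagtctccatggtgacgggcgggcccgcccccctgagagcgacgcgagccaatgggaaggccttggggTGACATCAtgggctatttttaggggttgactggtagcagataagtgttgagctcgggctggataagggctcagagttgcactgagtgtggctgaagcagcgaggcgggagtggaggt
ATF3: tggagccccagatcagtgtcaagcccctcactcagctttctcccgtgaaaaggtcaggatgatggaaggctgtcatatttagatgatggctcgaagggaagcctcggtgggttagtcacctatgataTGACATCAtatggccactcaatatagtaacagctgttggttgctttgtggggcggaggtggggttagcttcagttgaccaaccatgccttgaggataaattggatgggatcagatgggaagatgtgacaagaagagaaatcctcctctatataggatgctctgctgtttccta
FOSL2: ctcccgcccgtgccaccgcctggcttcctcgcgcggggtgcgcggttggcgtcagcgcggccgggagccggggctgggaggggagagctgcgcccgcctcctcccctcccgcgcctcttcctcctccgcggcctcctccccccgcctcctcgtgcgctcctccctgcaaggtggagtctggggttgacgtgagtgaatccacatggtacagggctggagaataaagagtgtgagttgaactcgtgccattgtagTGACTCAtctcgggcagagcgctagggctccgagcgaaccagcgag

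In EGR1 the capitals mark GCGCGGGCG, a match to the loose EGR pattern, at bases 53 to 61 of the window. They also mark CArG boxes at bases 146 to 155 and 168 to 177. A CArG box was found in 1.29% of the 35116 windows of all genes, and the loose EGR pattern in 9.43%. In JUN the capitals mark TGACATCA at bases 184 to 191, and in ATF3 the same letters at bases 128 to 135 of the first of its windows. These letters were found in 2.61% of all windows. In FOSL2 they mark an AP-1 site at bases 255 to 261, which 7.71% of all windows held. JUND had a cAMP response element at bases 51 to 58, and MAFF had one at bases 197 to 204 of the first of its windows. This element was found in 1.85% of all windows. None of these motifs was found in the windows of FOS, FOSB and JUNB. Only exact letters within these short windows were searched, so elements further from the start or with other letters would be missed. A match of letters is a description and not a bound site.

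After 25(OH)D, 4 members were higher, namely FOS, JUN, JUNB and FOSL2, and 2 were lower, namely EGR1 and ATF3. FOS rose 3.75-fold and EGR1 fell 3.35-fold, and they were the only members past a log2 fold change of 1 at an unadjusted p under 0.05, which 6.65% of all genes tested passed (4.02% higher and 2.63% lower). JUND, FOSB and MAFF did not pass the test, and FOSL1 had too few counts to be tested. A gene was called where its p from the quasi-likelihood test of edgeR, adjusted by Benjamini-Hochberg over the 18183 genes tested, was below 0.05. This rule called 33.8% of all genes tested, 17.3% as higher and 16.5% as lower, so a call alone is common in this contrast. The groups did not overlap in 6 of the 9 members tested, against 45.7% of all genes tested. Both counts leave out FOSL1. The members were chosen with earlier results of these data known, so neither count is read as a result about them as a set. The replicates are described as biological, but the sources used here do not say whether they were separate cultures, so the p-values measure only the spread between these libraries. In bulk RNA, a change in the share of cells that express a gene and a change in the level per cell cannot be told apart.

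**Figure D1:**
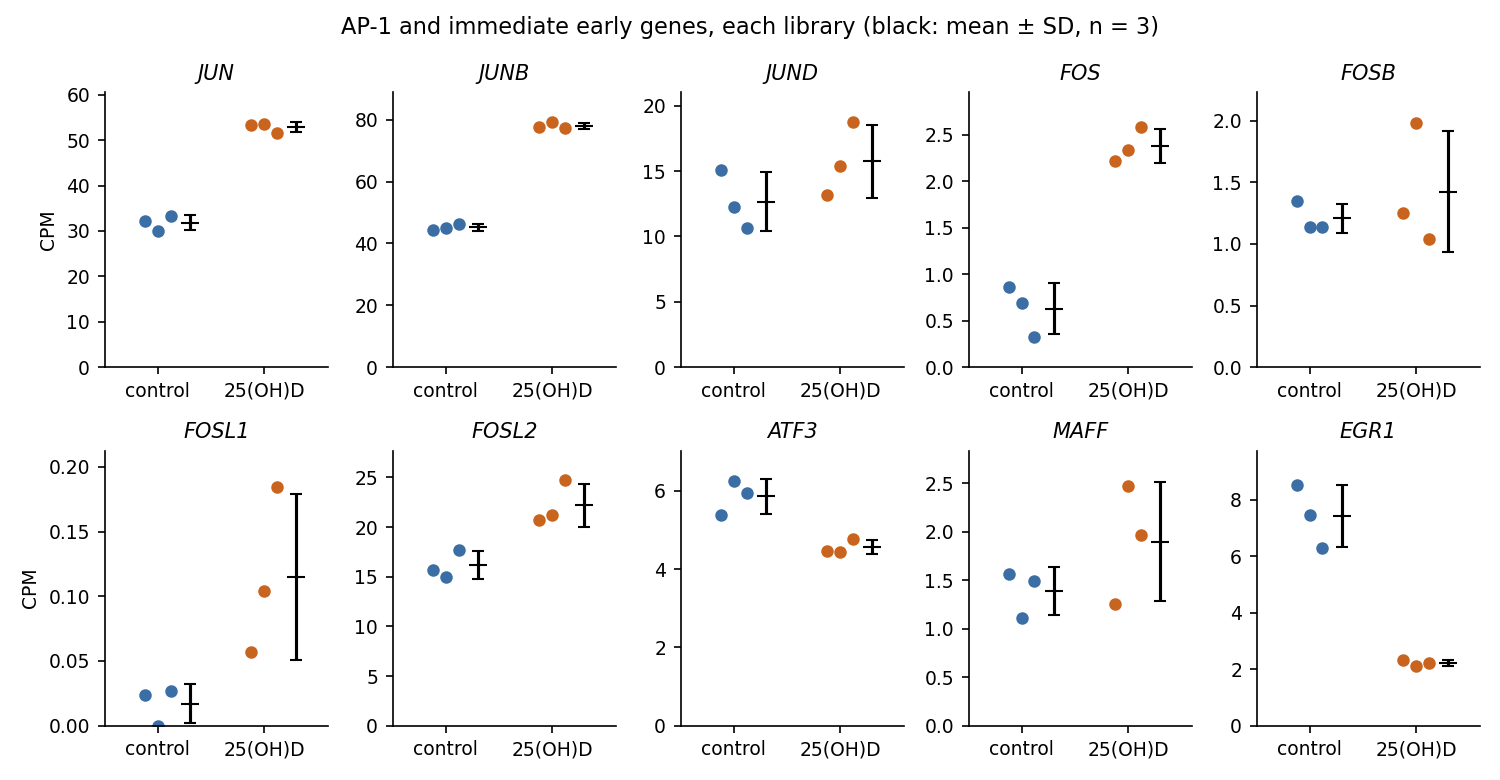
Level of each of the 10 members in CPM (vertical axis, from 0, with its own scale for each gene) in the 3 control libraries (blue) and the 3 25(OH)D libraries (orange), with the mean ± SD in black. For FOS, JUN, JUNB and FOSL2 every 25(OH)D library lies above every control library, and for EGR1 and ATF3 every one lies below.

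Among the JUN genes, JUN itself encodes c-JUN, which JNK phosphorylates. The gene lies on chromosome 1 from 58780788 to 58784327 on the minus strand of GRCh38. Its counts were 1336, 1136 and 1228 in control against 1876, 2060 and 1684 after 25(OH)D. In CPM these were 32.1, 30.0 and 33.4 against 53.4, 53.6 and 51.7, so the groups were far apart and the libraries within each were close. The mean rose from 31.8 ± 1.67 to 52.9 ± 1.04 CPM (± SD, n = 3 each), and the log2 change was 0.73 ± 0.0584 (SE, edgeR adjusted p = 2.35e-07).

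JUNB, on chromosome 19 from 12791496 to 12793315 (plus strand), encodes a JUN protein that is known to activate less strongly than c-JUN at many sites. It had 44.2, 44.9 and 46.4 CPM in control against 77.55, 79.1 and 77.3 after 25(OH)D. This was the member with the smallest p and with the least spread between replicates. The mean rose from 45.2 ± 1.13 to 77.99 ± 0.984 CPM (± SD, n = 3 each), and the log2 change was 0.79 ± 0.0489 (SE, edgeR adjusted p = 1.57e-08). JUNB shares 259 of its 1820 exon bases (14.2%) with HOOK2 on the opposite strand. HOOK2 was more abundant, with 332 and 412 CPM, and had a log2 fold change of 0.31. The library kit keeps the strand, but the strand setting of the counting is not given in the sources used here, so reads in those bases may not all be JUNB's.

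JUND, on chromosome 19 from 18279760 to 18281622 (minus strand), encodes the JUN protein that many cells express without stimulation. Its counts were 628, 464 and 392 in control against 464, 590 and 610 after 25(OH)D, and the groups overlapped. The log2 fold change was 0.31 (95% confidence interval 0.019 to 0.60), with an adjusted p of 0.0956 from edgeR. The result hung on single libraries: without control replicate 1 the log2 fold change was 0.46 with an adjusted p of 0.0150, and without 25(OH)D replicate 1 it was 0.43 with 0.0340. Without a low-count filter the adjusted p was 0.00928.

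Of the FOS genes, FOS encodes c-FOS, the classic immediate early partner of JUN, and lies on chromosome 14 from 75278774 to 75282230 (plus strand). Its counts were 36, 26 and 12 in control against 78, 90 and 84 after 25(OH)D. Few reads carried this gene, and the control libraries differed among themselves by more than those of any other member tested, with a coefficient of variation of 43.9% against 7.67% in 25(OH)D. Its counts, like those of JUN and JUND, were even numbers in all 6 libraries, and 44 of the 59 counts above 0 of the members (74.6%) were even. The sources used here do not say whether both reads of a pair were counted apart, in which case the counts would exceed the number of RNA fragments. With counts halved the log2 change of FOS was 1.89 (edgeR adjusted p = 1.14e-04). The highest control library still lay below the lowest 25(OH)D library. The mean rose from 0.626 ± 0.275 to 2.38 ± 0.183 CPM (± SD, n = 3 each), and the log2 change was 1.91 ± 0.300 (SE, edgeR adjusted p = 1.83e-04). On log2(RPKM + 1), a scale that understates changes of low genes, it was 0.53, and when single libraries were left out it lay between 1.61 and 2.22.

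FOSL2 encodes FRA-2, a FOS-related protein without the strong activation domain of c-FOS, and lies on chromosome 2 from 28392448 to 28417312 (plus strand). It had 15.7, 15.0 and 17.7 CPM in control against 20.7, 21.2 and 24.7 after 25(OH)D, with no overlap. The mean rose from 16.1 ± 1.41 to 22.2 ± 2.17 CPM (± SD, n = 3 each), and the log2 change was 0.46 ± 0.0895 (SE, edgeR adjusted p = 0.00105). On log2(RPKM + 1) the log2 fold change was 0.30.

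FOSB, which like FOS is induced by serum and in neurons by activity, had 56, 43 and 42 counts in control against 44, 76 and 34 after 25(OH)D. One 25(OH)D library was the highest of the 6 and another the lowest. The log2 fold change was 0.24 (95% confidence interval -0.36 to 0.85, adjusted p = 0.550 from edgeR), and it turned to -0.066 without 25(OH)D replicate 2. These libraries do not tell apart the changes within that interval.

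FOSL1 encodes FRA-1, known for high levels in invasive, mesenchymal breast cancer cells. It had 1, 0 and 1 counts in control against 2, 4 and 6 after 25(OH)D. Relative to the library totals and summed over the libraries, 25(OH)D was 6.37 times control, with an exact binomial 95% confidence interval of 1.42 to 58.6 for counting error. With the summed counts halved, to 1 in control against 6 after 25(OH)D, the interval was 0.773 to 293, which includes no change. The control counts lay in different libraries and cannot be 1 read pair, so this halving understates control. The depth leaves the level of FOSL1 poorly determined.

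EGR1, on chromosome 5 from 138465490 to 138469315 (plus strand), moved against FOS and JUN. It had 355, 282 and 232 counts in control against 82, 81 and 72 after 25(OH)D. The 25(OH)D libraries lay close together, with a coefficient of variation of 5.10% against 15.0% in control, and far below every control library. EGR1 mRNA fell from a mean of 7.43 ± 1.11 to 2.22 ± 0.113 CPM (± SD, n = 3 each), and the log2 change was -1.75 ± 0.152 (SE, edgeR adjusted p = 5.88e-07). When single libraries were left out it lay between -1.84 and -1.63.

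ATF3 encodes a stress-induced factor that represses as a homodimer and can pair with JUN proteins, and lies on chromosome 1 from 212565334 to 212620777 (plus strand). It had 5.38, 6.24 and 5.95 CPM in control against 4.47, 4.45 and 4.76 after 25(OH)D. The groups did not overlap, but the gap between them was small. The log2 change was -0.36 ± 0.126 (SE, edgeR adjusted p = 0.0391), and the adjusted p was 0.121 with DESeq2 and 0.0739 without a low-count filter. The call was also lost, with adjusted p-values between 0.0588 and 0.142, when control replicate 2, control replicate 3 or any 1 of the 3 25(OH)D libraries was left out, where the log2 fold changes lay between -0.38 and -0.31.

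MAFF, a small MAF protein that binds DNA but lacks an activation domain of its own, had 65, 42 and 55 counts in control against 44, 95 and 64 after 25(OH)D. The groups overlapped. Its log2 fold change was 0.45 (95% confidence interval -0.13 to 1.04, adjusted p = 0.232 from edgeR), and on log2(RPKM + 1) it was 0.089. It was 0.21 without 25(OH)D replicate 2 and 0.68 without 25(OH)D replicate 1, where the adjusted p was 0.0655.

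**Figure D2:**
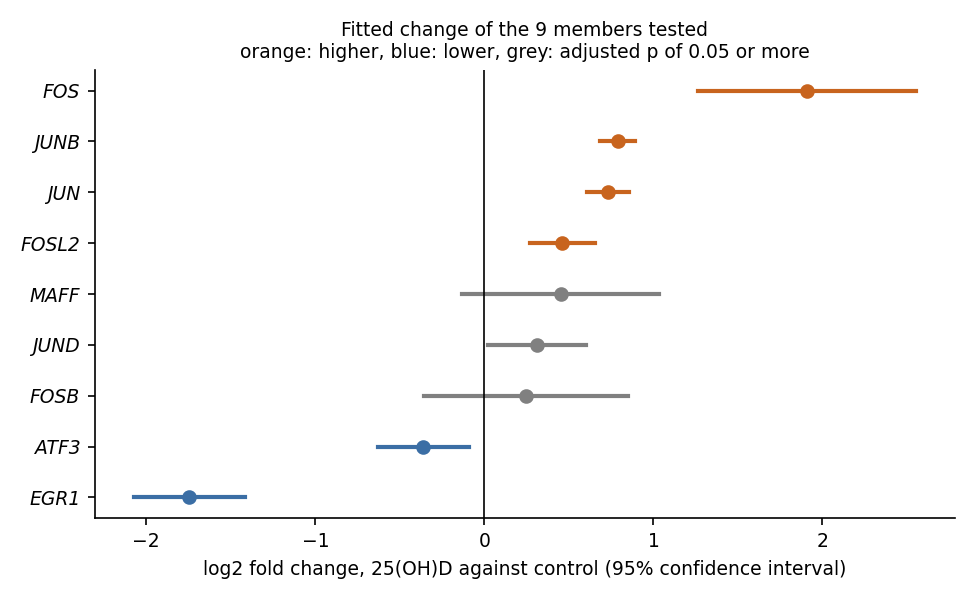
Fitted log2 fold change of 25(OH)D against control (horizontal axis) for the 9 members tested, with 95% confidence intervals derived from the edgeR test. Orange marks members called higher, blue those called lower and grey those not called; the values run from -1.75 for EGR1 to 1.91 for FOS.

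Per length, the JUN genes were the most abundant members in both groups. In RPKM the control levels were 25.2 ± 0.519 for JUNB, 9.12 ± 0.447 for JUN and 6.90 ± 1.25 for JUND (SD, n = 3 each), with no overlap between neighbours. EGR1 followed with 2.40 ± 0.369 and FOSL2 with 2.29 ± 0.189, and their libraries overlapped. ATF3 had 1.47 ± 0.109 RPKM, clear of both neighbours. MAFF, FOSB and FOS had 0.251 ± 0.0436, 0.221 ± 0.0223 and 0.196 ± 0.0867, with overlap between neighbours, and FOSL1 was last with 0.00916 ± 0.00797.

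In the 25(OH)D libraries JUNB stood at 42.2 ± 0.821, JUN at 14.7 ± 0.364, JUND at 8.32 ± 1.45 and FOSL2 at 3.05 ± 0.288 RPKM (SD, n = 3 each). EGR1 moved from the fourth place to the seventh, at 0.695 ± 0.0321 RPKM, where its libraries overlapped those of FOS at 0.723 ± 0.0540. ATF3, at 1.11 ± 0.0377 RPKM, stood above both. MAFF and FOSB, at 0.333 ± 0.109 and 0.253 ± 0.0888, again overlapped, and FOSL1 was last with 0.0599 ± 0.0333.

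**Figure D3:**
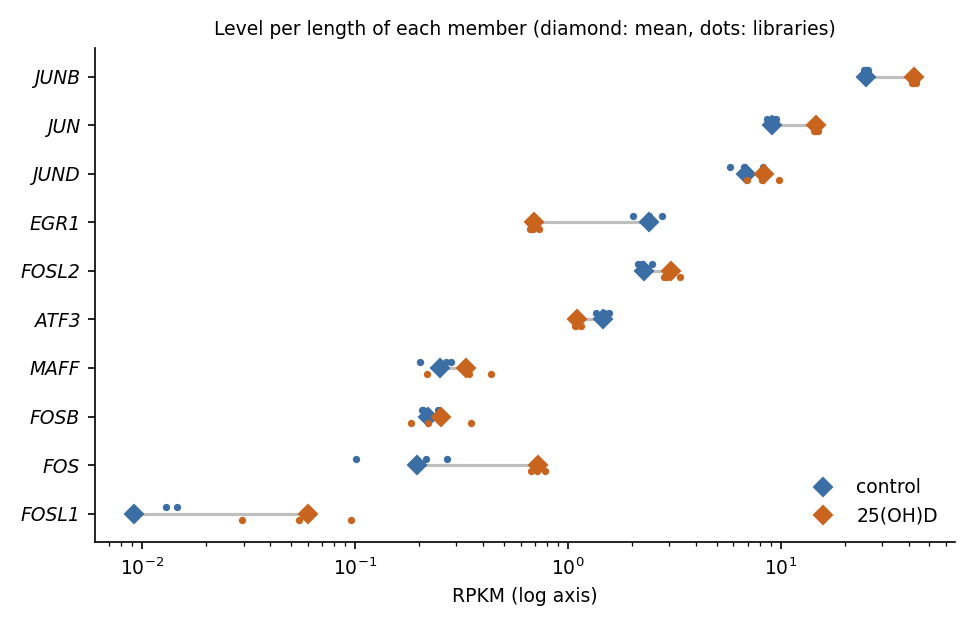
Level of the 10 members in RPKM (horizontal log axis) in control (blue) and 25(OH)D (orange), with diamonds for means of 3 libraries and dots for libraries. FOSL1 has 1 control library at 0, which a log axis cannot show; EGR1 falls from 2.40 to 0.695 RPKM, near FOS at 0.723.

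The makeup of the families, as shares of summed RPKM in each library, is given as a description with no test. The JUN genes together had 42.2, 40.4 and 41.0 RPKM in control against 63.5, 66.3 and 65.7 after 25(OH)D. The FOS genes together had 2.76, 2.55 and 2.82 against 3.76, 4.07 and 4.44. JUN-family mRNA was thus between 14.5 and 16.9 times FOS-family mRNA in every library, and the groups overlapped in this ratio. JUNB took between 58.6% and 62.8% of the JUN family in control and between 63.3% and 65.8% in 25(OH)D, and JUN took between 21.4% and 23.2% and between 21.7% and 23.3%. FOSL2 took most of the FOS family, between 80.8% and 88.5% in control and between 72.3% and 76.1% in 25(OH)D. The share of FOS was between 3.60% and 9.83% in control and between 17.6% and 17.9% in 25(OH)D.

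The control libraries were not alike for the early genes. Of the 35 tested genes that are members or stand on the list of other immediate early genes, 20 (57.1%) were highest of the control libraries in replicate 1, against 34.5% of all genes tested. FOS, EGR1, JUND, FOSB and MAFF were among them. Without control replicate 1 the log2 fold change was 2.22 for FOS, -1.63 for EGR1 and 0.46 for JUND, and the adjusted p-values from edgeR were 1.14e-04, 2.46e-06 and 0.0150. FOSB and MAFF stayed uncalled without that library, with log2 fold changes of 0.34 and 0.55 (edgeR adjusted p = 0.490 and 0.214).

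Beyond the members, 9 lists of 117 genes around AP-1 and EGR1 were counted, of which 95 genes were tested. Of these 21 were higher and 24 lower, which is 47.4% called against 33.8% of all genes tested. The lists were chosen with earlier results of these data known, so this excess is not read as a result about them. The median log2 fold change of all genes tested was -0.0113, and the lists are described by their counts and medians with no test of a list.

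**Figure D4:**
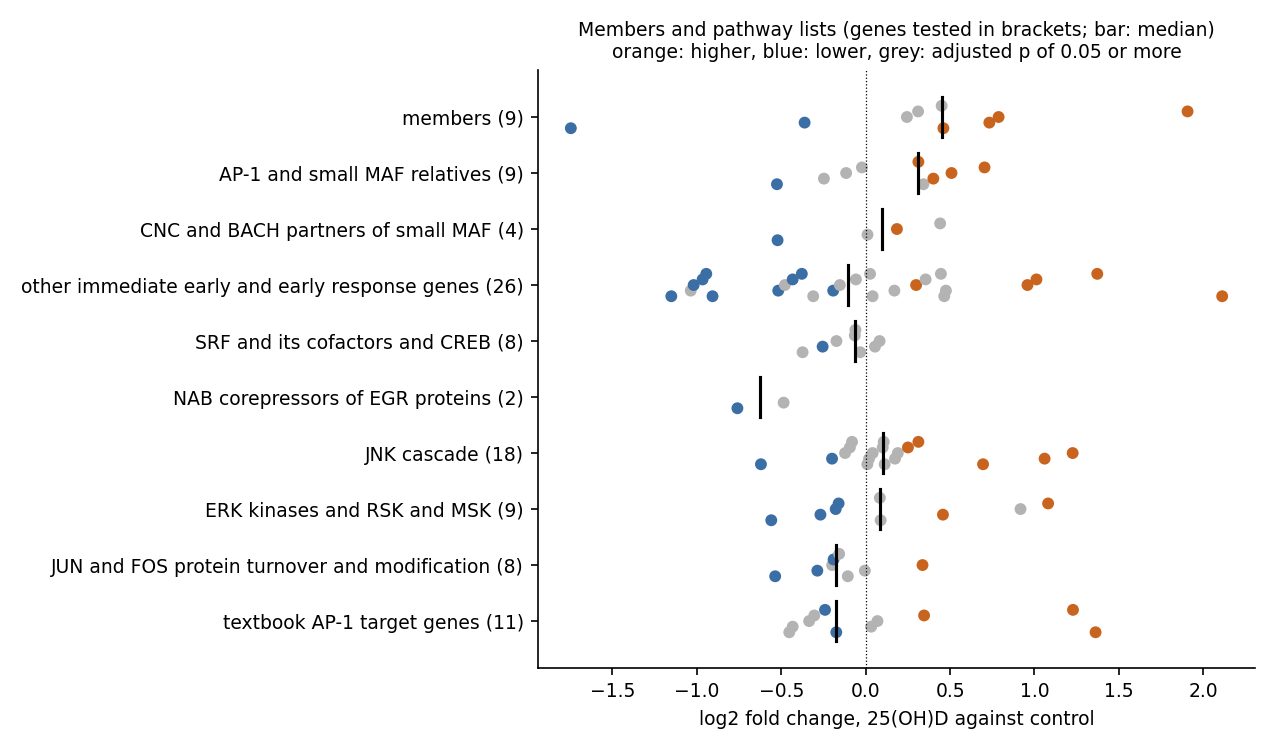
Log2 fold change of 25(OH)D against control (horizontal axis) for each tested gene of the members and of the 9 lists, with the list median as a black bar. Orange marks genes called higher, blue those called lower and grey those not called; the members' median is 0.45, and the early response genes spread on both sides of 0.

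Of 12 other AP-1 and MAF proteins, 9 were tested, with 4 higher, 1 lower and a median log2 fold change of 0.31. The small MAF gene MAFK rose from 20.2 ± 0.223 to 28.8 ± 0.554 CPM (± SD, n = 3 each), and the log2 change was 0.51 ± 0.0633 (SE, edgeR adjusted p = 2.13e-05). BATF, which is known from lymphocytes and pairs with JUN proteins, rose by a log2 change of 0.70 ± 0.108 (SE, edgeR adjusted p = 1.42e-04). JDP2, a JUN-binding repressor of AP-1, was the most abundant of this list in CPM and fell from 237 ± 2.31 to 165 ± 3.82 CPM (± SD, n = 3 each), and the log2 change was -0.53 ± 0.0376 (SE, edgeR adjusted p = 7.45e-08). Of 6 partners of small MAF proteins, 4 were tested, with 1 higher, 1 lower and a median of 0.098. NFE2L1, an activator, rose with a log2 fold change of 0.19, and BACH1, a repressor, fell with -0.52.

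Of 31 other immediate early and early response genes, 26 were tested, with 5 higher, 9 lower and a median log2 fold change of -0.105. BTG2, an antiproliferative target of p53, rose from 39.2 ± 0.994 to 169.5 ± 4.60 CPM (± SD, n = 3 each), and the log2 change was 2.11 ± 0.0459 (SE, edgeR adjusted p = 1.93e-13). The others that rose were GADD45A (log2 fold change 1.37), PLK3 (1.01), CSRNP1 (0.96) and ZFP36 (0.30). PLK2, a polo-like kinase, fell from 376 ± 19.5 to 186 ± 2.68 CPM (± SD, n = 3 each), and the log2 change was -1.02 ± 0.0425 (SE, edgeR adjusted p = 1.96e-10). KLF4, a zinc finger factor of epithelial differentiation, fell by a log2 change of -1.15 ± 0.116 (SE, edgeR adjusted p = 2.65e-06). The others that fell were KLF2 (log2 fold change -0.97), KLF6 (-0.94), RHOB (-0.91), NFIL3 (-0.52), IER2 (-0.43), IER3 (-0.38) and PPP1R15A (-0.19). The genes listed here beside BTG2, PLK2 and KLF4 were named after their values were seen. The EGR relatives EGR2, EGR3 and EGR4 had at most 6 counts in any library and were not tested.

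The EGR corepressor NAB2, itself a known EGR1 target, fell from 31.6 ± 0.895 to 18.6 ± 0.823 CPM (± SD, n = 3 each), and the log2 change was -0.76 ± 0.0666 (SE, edgeR adjusted p = 6.23e-07). NAB1 was not called, with a log2 fold change of -0.49 (adjusted p = 0.328). Of 8 genes for serum response factor, its cofactors and CREB proteins, all 8 were tested, with none higher, 1 lower and a median of -0.062. SRF, which binds the CArG box, had a log2 fold change of -0.061 (95% confidence interval -0.24 to 0.12). ATF1, a CREB relative, was the one that fell, with -0.25 (adjusted p = 0.0167), and its call was lost without control replicate 3 (adjusted p = 0.0911) and without 25(OH)D replicate 1 (0.0589).

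In the JNK cascade, 18 of 19 genes were tested, with 5 higher, 2 lower and a median log2 fold change of 0.10. MAP3K1, a kinase at the head of the cascade, rose from 43.8 ± 1.79 to 91.4 ± 6.36 CPM (± SD, n = 3 each), and the log2 change was 1.06 ± 0.0592 (SE, edgeR adjusted p = 4.92e-09). DUSP10, a phosphatase that inactivates JNK and p38, rose as well, by a log2 change of 1.23 ± 0.108 (SE, edgeR adjusted p = 6.67e-07). MAP3K5, the stress kinase ASK1, fell by a log2 change of -0.62 ± 0.0771 (SE, edgeR adjusted p = 2.08e-05). Of the 9 ERK, RSK and MSK genes, all tested, 2 were higher and 4 lower, with a median of 0.084. RPS6KA1, which encodes RSK1, rose with a log2 change of 1.08 ± 0.132 (SE, adjusted p = 1.77e-05), and RPS6KA5, which encodes MSK1, fell with -0.56 (adjusted p = 7.76e-06).

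Of 8 genes for turnover and modification of JUN and FOS proteins, all tested, 1 was higher and 3 lower, with a median of -0.17. COP1, a ubiquitin ligase of c-JUN listed as RFWD2, rose with a log2 fold change of 0.34, and FBXW7, which recognises phosphorylated c-JUN, fell with -0.54. Of 22 textbook AP-1 target genes, 11 were tested, with 3 higher, 2 lower and a median of -0.17. MT2A, a metallothionein, rose from 194 ± 17.6 to 499 ± 6.29 CPM (± SD, n = 3 each), and the log2 change was 1.36 ± 0.0538 (SE, edgeR adjusted p = 1.04e-10). CCND1, which encodes cyclin D1, also rose, with a log2 fold change of 0.35, and was named after its value was seen. EZR, which encodes ezrin, fell with -0.17, and TGFB1 with -0.24. The call of TGFB1 was lost when control replicate 1, 2 or 3 or 25(OH)D replicate 1 was left out, with adjusted p-values from 0.0559 to 0.141, and with DESeq2 (0.0592). The collagenase and stromelysin genes MMP1, MMP3 and MMP10 were not listed in the table.

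Some list genes share exon bases with a gene on the opposite strand, which limits their values as for JUNB. MAFK (log2 fold change 0.51) shared 18.1% with TMEM184A, which was more abundant, at 33.9 and 56.3 CPM, and rose by a log2 change of 0.73 (edgeR adjusted p = 2.67e-07). TGFB1 (-0.24) shared 6.64% with HNRNPUL1, which was also more abundant, at 332 and 281 CPM, and had a log2 change of -0.24 (edgeR adjusted p = 1.72e-04). CCND1 shared 10.3% with ORAOV1, which was less abundant and was not called. IER2 and IER3 shared 30.8% and 26.5% with antisense genes that fell too, with log2 changes of -0.52 for CTC-250I14.6 and -0.45 for XXbac-BPG252P9.10. How much of the change in each named gene comes from reads of its partner was not tested. Nor was how much of each partner's change comes from reads of the named gene. For the other named genes of the lists such a share was at most 3.81%.

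The genes closest in pattern to JUNB and EGR1, the members with the smallest p in each direction, were found by the mean absolute difference of centred log2 CPM over the 6 libraries. Among 11301 genes with at least 100 counts on average, ALCAM (0.0232), ANXA2 (0.0237) and INSIG2 (0.0260) were closest to JUNB, and 243 genes lay within 0.1. For EGR1 the closest were MLK7-AS1 (0.0586), ZFP36L2 (0.0828) and KCNK2 (0.0842), and 6 genes lay within 0.1. The log2 fold changes of these 3 were -1.72, -1.77 and -1.77, which the choice by likeness to EGR1 largely fixes in advance.

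**Figure D5:**
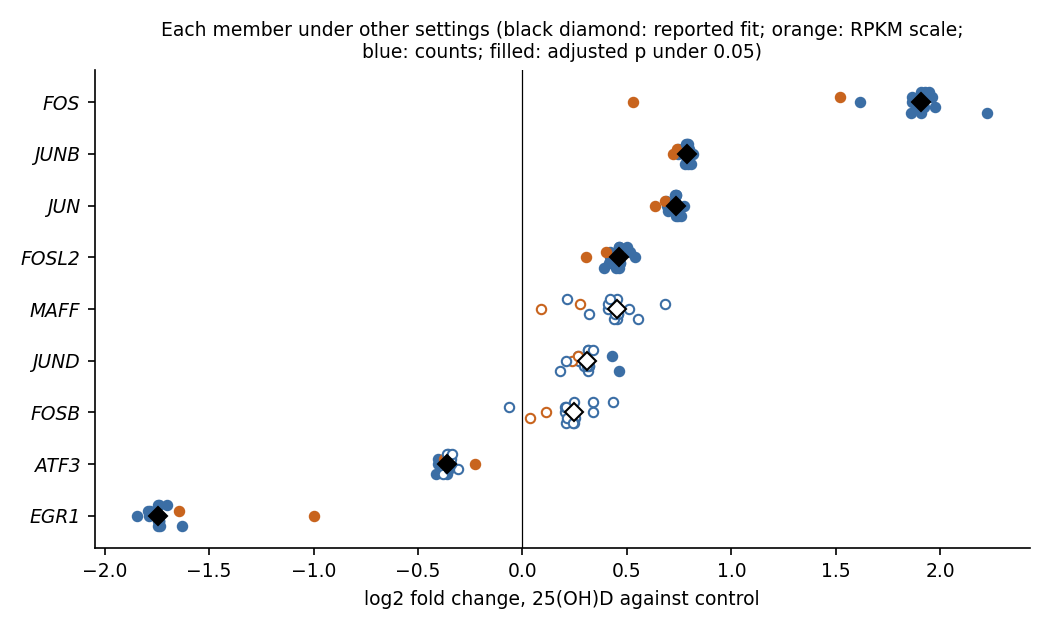
Log2 fold change of 25(OH)D against control (horizontal axis) for the 9 members tested under the reported fit (black diamond) and under the other settings, with RPKM scales in orange and counts in blue. Filled symbols have an adjusted p under 0.05; FOS, JUN, JUNB, FOSL2 and EGR1 are filled under every setting run, ATF3 and JUND are not uniform, and the lowest value of FOSB is -0.066.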

How the data were processed

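The authors deposited unnormalised counts of reads for each gene, all whole numbers, and RPKM values. The submitters' processing notes name Trimmomatic 0.36, featureCounts, Subread 1.5.1, edgeR 3.12.1 and GRCh38; the aligner, the annotation release and the settings for strand and read pairs are not given in the sources used here. Each deposited RPKM value equalled its count divided by gene length and library total (largest relative difference 2.23e-13). Gene spans of the members matched GENCODE 29.

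The count table was fitted with edgeR 4.0.16 (R 4.3.3), using TMM normalization, the default low-count filter (minimum count 10) and the quasi-likelihood test without covariates over 18183 genes. The SE given with it was derived, as the size of the log2 change divided by the square root of the F statistic. The confidence intervals of log2 fold changes add and subtract that SE times a t quantile. The biological coefficient of variation was 0.0788. On data simulated for this comparison, 195 of 200 changed genes were recovered among 17867, with 15 unchanged genes called. The changes put in were log2 changes of at least 1 in size, in genes well above the low-count filter. All other genes were left unchanged. Recovery of smaller changes, such as those of JUN, JUNB, FOSL2 and ATF3, or of changes in low genes was not tested. Alternatives were other normalizations and filters, DESeq2 1.42.0, limma 3.58.1 on log2(RPKM + 1) and log2(RPKM + 0.1), a replicate block, the limits of 1 on the log2 fold change and 0.05 on the unadjusted p, and each library left out. Even numbers made up 68.5% of counts from 1 to 10, as would arise where both reads of a pair are counted, which was not tested. A setting with counts halved and rounded up was therefore added after the data were seen. Replicate pairs differed by more than sampling noise allows, with chi-square values per gene of 4.01 to 12.1. Intervals of single counts cover counting error only.

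The members and lists were chosen with earlier results of these data known. Named genes were all members and, in each list, the called gene with the smallest p and the one with the largest change in each direction, and the genes closest in pattern to JUNB and EGR1. Further list genes outside this rule (GADD45A, PLK3, CSRNP1, ZFP36, KLF2, KLF6, RHOB, NFIL3, IER2, IER3, PPP1R15A, CCND1, NAB1, SRF, EGR2, EGR3 and EGR4), markers and overlapping genes were named after their values were seen. Some list genes are counted but not reported by name here.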

Additional observations from a re-analysis of the deposited data

How the results depend on the processing

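FOS, JUN, JUNB, FOSL2 and EGR1 kept their direction and an adjusted p under 0.05 under all 16 other settings, and MAFF stayed short of it. When single libraries were left out, log2 fold changes were between 0.70 and 0.77 for JUN, 0.78 and 0.81 for JUNB, 0.39 and 0.54 for FOSL2, -0.41 and -0.31 for ATF3, 0.18 and 0.46 for JUND, 0.21 and 0.68 for MAFF, and -0.066 and 0.43 for FOSB. ATF3 lost its call without a low-count filter (-0.36, adjusted p = 0.0739), with DESeq2 (-0.36, 0.121) and with the replicate block (-0.36, 0.0573), so that 1 member was lower under each, and between 1 and 2 when a library was left out. JUND gained a call without a low-count filter (0.31). At the limits of 1 on the log2 fold change and 0.05 on the unadjusted p, 1 member was higher and 1 lower, against 731 and 478 (4.02% and 2.63%) of all genes tested and 8 and 2 of the list genes. Same-numbered libraries did not deviate together (correlations -0.072, -0.012 and -0.046). This shows no shared deviation, but it cannot tell whether cultures with the same number were handled as pairs. No other member's call changed under the block. With a minimum of 50 counts in 3 libraries FOSB was not tested. Low counts limit FOS, FOSB, FOSL1 and MAFF.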
